A study of Rattus norvegicus with 4 samples.

Results

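Sarcomere and muscle contraction genes were followed across 4 cultures of L6, a rat skeletal myoblast line, with 1 Affymetrix rat genome array for each culture. The list holds 44 genes chosen by name for their place in the contractile apparatus: striated actins, myosins and their binding proteins, troponins, tropomyosins, titin and nebulin, Z-disc and M-band genes and a few relatives. Of these, 43 had at least 1 probe set annotated to that gene alone, 80 probe sets in all, among 14217 genes on the array. The exception was cardiac actin Actc1, whose 5 probe sets are also annotated to smooth muscle actin Acta2 and were not used. The cultures were an L6-HGF sheet, an L6-WT sheet, an L6-HGF monolayer and an L6-WT monolayer, all from the same Wistar-derived line. L6-HGF myoblasts express human hgf constitutively from the retroviral vector pBabepuro after puromycin selection, and L6-WT is the wild-type line, with no empty-vector control described. An effect of hHGF therefore cannot be told apart from one of the vector or the selection. Sheets were made by plating myoblasts on thermoreactive dishes, which release them as an intact layer at room temperature, while for monolayers the sources used here give no dish or density.

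The sarcomere is the contractile unit of striated muscle. In it, thick filaments of myosin pull on thin filaments of actin, and calcium binding to troponin C shifts tropomyosin on the thin filament so that myosin can reach actin. The Z-disc anchors the thin filaments and the M-band links the thick ones. Many of these proteins come as fast, slow, cardiac or developmental isoforms from separate genes. Proliferating myoblasts carry few sarcomeres, and the genes are switched on as cells leave the cycle and fuse into myotubes. Embryonic myosin Myh3 and skeletal actin Acta1 are among those that come on during differentiation.

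The deposited values are log2 values, and the median over the 4 arrays has been subtracted for every probe set. A value of 0 is thus the middle of the 4 cultures, the middle pair of arrays lie equally far above and below it, and the signal level itself is lost. It could not be checked whether a gene was expressed at all, whether one gene was more abundant than another, or whether defining muscle markers were present. With 1 array per culture no difference has a replicate check, and in a whole culture fewer cells of a type cannot be told apart from less RNA per cell. As a measure of technical spread, the differences of 45 bacterial control probe sets spread with an SD of 0.22 (log2) between the sheets, 0.12 between the monolayers, 0.16 between sheet and monolayer of L6-HGF and 0.18 between those of L6-WT. None of them passed 2-fold. Their medians were 0.17 higher in the sheet than in the monolayer of L6-HGF and 0.23 higher in L6-WT. The probe sets at the 3′ end of beta-actin, set against those at its 5′ end, stood at 0.08 and 0.11 (log2, centred) in the L6-HGF and L6-WT sheets and at -0.12 and -0.06 in the L6-HGF and L6-WT monolayers. For hexokinase the values were 0.19 and 0.15 in the sheets and -0.10 and -0.17 in the monolayers, and for GAPDH 0.08 and 0.02 in the sheets and -0.02 and 0.02 in the monolayers.

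Skeletal actin Acta1, the main actin of the skeletal thin filament, was the only member lower in L6-HGF by more than 2-fold in both formats. Its centred log2 value was -0.87 in the L6-HGF sheet and 1.14 in the L6-WT sheet, and -0.82 in the L6-HGF monolayer and 0.82 in the L6-WT monolayer. Both L6-HGF arrays lay below both L6-WT arrays. Acta1 was 4.03-fold lower in L6-HGF sheets and 3.11-fold lower in L6-HGF monolayers than in L6-WT, the 7th and 6th lowest differences of 14217 genes. In contrast, sheet and monolayer lay close together, with a sheet minus monolayer difference of -0.05 (log2) in L6-HGF and 0.32 in L6-WT.

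Troponin C, the calcium sensor of the thin filament, followed the same order of arrays in both of its isoforms. Tnnc2, the fast skeletal isoform, had centred log2 values of -0.48 in the L6-HGF sheet and 0.48 in the L6-WT sheet, and of -0.90 in the L6-HGF monolayer and 0.71 in the L6-WT monolayer. Tnnc1, the slow skeletal and cardiac isoform, had -0.41 and 0.41 in the L6-HGF and L6-WT sheets, and -0.76 and 0.81 in the L6-HGF and L6-WT monolayers. For both genes the L6-HGF monolayer was lowest and the L6-WT monolayer highest, with the sheets between them. L6-HGF was lower by 3.05-fold for Tnnc2 and 2.98-fold for Tnnc1 in monolayers, and 1.95-fold and 1.78-fold in sheets, which is short of 2-fold.

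**Figure D1:**
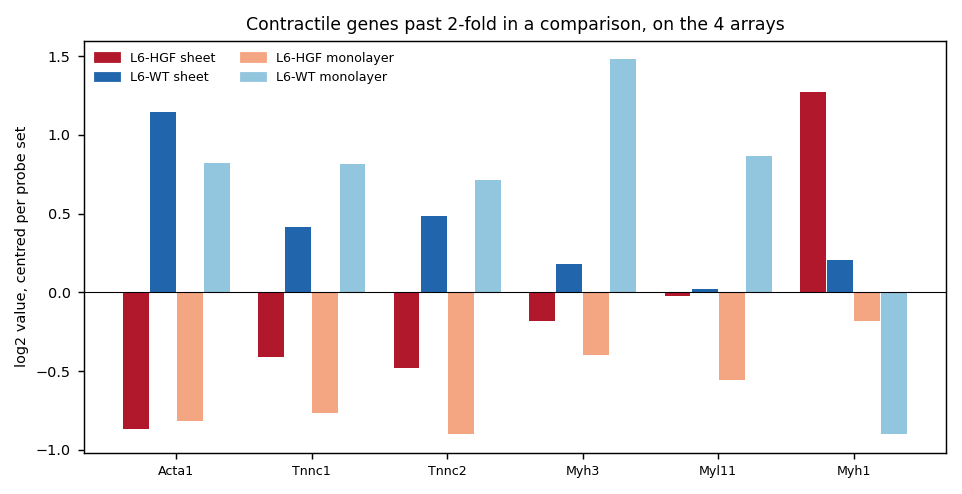
Centred log2 value (vertical axis, 0 is the median of the 4 arrays for a probe set) of the 6 contractile genes that passed 2-fold in any comparison, with 1 bar per array, as the mean over the gene's probe sets. Acta1, Tnnc1 and Tnnc2 lie below 0 on both L6-HGF arrays, Myh3 and Myl11 stand out on the L6-WT monolayer array (1.48 and 0.86), and Myh1 runs the other way, with 1.27 in the L6-HGF sheet and -0.90 in the L6-WT monolayer.

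Embryonic myosin heavy chain Myh3 and the fast regulatory light chain Myl11 differed by more than 2-fold between L6-HGF and L6-WT in monolayers but not in sheets. Myh3 had -0.18 in the L6-HGF sheet and 0.18 in the L6-WT sheet, and -0.40 in the L6-HGF monolayer and 1.48 in the L6-WT monolayer (log2, centred). The L6-WT monolayer alone was far from the other arrays. Myh3 was 3.68-fold lower in L6-HGF monolayers and 1.28-fold lower in L6-HGF sheets than in L6-WT. Myl11 had -0.02 in the L6-HGF sheet and 0.02 in the L6-WT sheet, and -0.56 in the L6-HGF monolayer and 0.86 in the L6-WT monolayer. The sheets were nearly equal, so that Myl11 was 2.67-fold lower in L6-HGF monolayers and 1.03-fold lower in L6-HGF sheets. Between sheet and monolayer of L6-WT, Myh3 was 2.46-fold and Myl11 1.79-fold lower in the sheet. This comparison shares the L6-WT monolayer array with the monolayer one, so the pair of differences is not independent.

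In all, L6-HGF monolayers had 5 of 43 members lower past 2-fold and none higher, against 0.309% of all genes lower and 0.225% higher. Of the members, 34 had a difference below 0, against 49.4% of all genes, and the median difference was -0.19 (log2) over the members and 0.00 over all genes. In L6-HGF sheets, 1 member was lower (Acta1) and 1 was higher (Myh1), against 0.95% of all genes lower and 0.492% higher. There, 25 members had a difference below 0, against 53.7% of all genes, with a median of -0.03 over the members and -0.02 over all genes. The bacterial controls had medians of 0.05 between the sheets and 0.10 between the monolayers. Past 1.5-fold, 4 members were lower and 2 higher in L6-HGF sheets, against 3.58% and 2.2% of all genes, and 7 were lower and 1 higher in L6-HGF monolayers, against 1.29% and 1.22%. These added Mybph in both formats, Tnnc1, Tnnc2 and Actn2 in sheets, and Tnnt2 and Myh1 in monolayers.

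**Figure D2:**
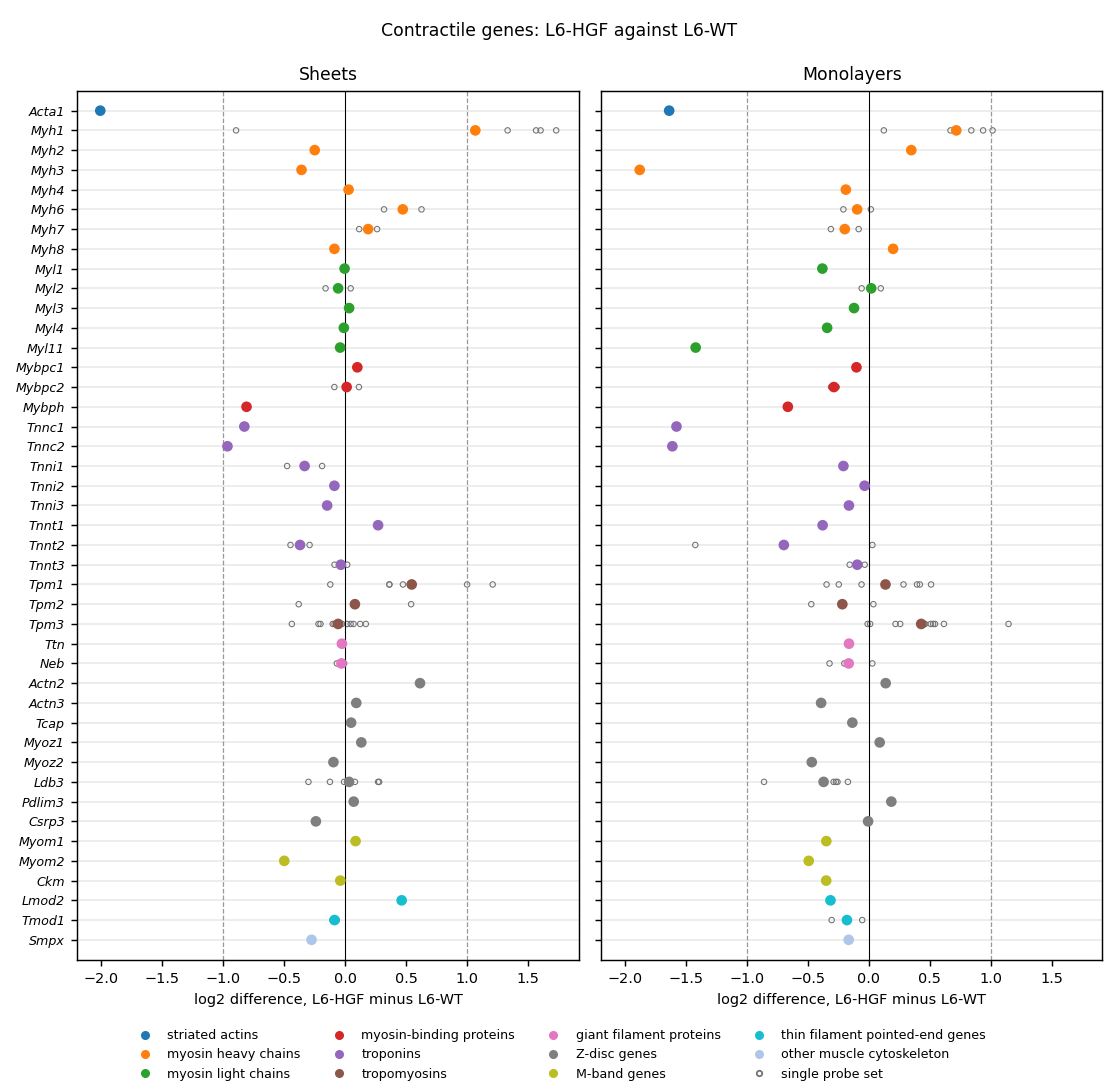
L6-HGF minus L6-WT, as a log2 difference (horizontal axis), for each of 43 contractile genes, in sheets (left) and monolayers (right), with dashed lines at 2-fold. Filled points are genes coloured by role, as the mean of their probe sets, and open circles are single probe sets of genes that have several. In monolayers 5 genes lie past the lower line and in sheets 1, Acta1, while Myh1 lies past the upper line in sheets.

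Since Acta1, Tnnc2, Myh3 and Myl11 were lower together in L6-HGF monolayers and Myh1 was not, the 250 bases before their annotated starts are shown, from RefSeq's table for the rat build GRCr8. Each is written 5′ to 3′ on the strand of its gene. Capitals mark matches on either strand to motifs of muscle promoters, namely the E-box (CANNTG, bound by the MyoD family), MCAT (CATTCC, bound by TEAD factors), the CArG box (bound by SRF) and the MEF2 box.
Acta1, chr19:68784195-68784444, minus strand: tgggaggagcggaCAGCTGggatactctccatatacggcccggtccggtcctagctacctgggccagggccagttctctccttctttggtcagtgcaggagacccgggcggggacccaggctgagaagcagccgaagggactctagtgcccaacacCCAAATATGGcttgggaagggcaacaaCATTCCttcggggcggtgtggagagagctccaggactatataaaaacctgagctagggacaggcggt
Tnnc2, chr3:173935340-173935589, minus strand: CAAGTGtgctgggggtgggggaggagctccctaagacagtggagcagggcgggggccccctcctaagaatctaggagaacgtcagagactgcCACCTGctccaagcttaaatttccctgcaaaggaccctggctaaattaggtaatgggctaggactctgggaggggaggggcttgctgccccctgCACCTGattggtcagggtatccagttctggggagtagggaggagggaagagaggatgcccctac
Myh3, chr10:52268935-52269184, plus strand: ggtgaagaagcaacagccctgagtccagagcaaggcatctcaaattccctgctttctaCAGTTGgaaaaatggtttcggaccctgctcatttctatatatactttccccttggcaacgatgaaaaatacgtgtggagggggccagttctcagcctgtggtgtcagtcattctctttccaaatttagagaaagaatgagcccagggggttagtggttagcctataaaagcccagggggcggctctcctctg
Myl11, chr1:191260039-191260288, plus strand: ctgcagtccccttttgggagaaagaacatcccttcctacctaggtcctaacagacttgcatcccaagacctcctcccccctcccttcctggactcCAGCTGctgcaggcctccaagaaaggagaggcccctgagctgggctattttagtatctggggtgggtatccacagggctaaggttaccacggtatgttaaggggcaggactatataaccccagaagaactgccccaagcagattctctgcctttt
Myh1, chr10:52384662-52384911, plus strand: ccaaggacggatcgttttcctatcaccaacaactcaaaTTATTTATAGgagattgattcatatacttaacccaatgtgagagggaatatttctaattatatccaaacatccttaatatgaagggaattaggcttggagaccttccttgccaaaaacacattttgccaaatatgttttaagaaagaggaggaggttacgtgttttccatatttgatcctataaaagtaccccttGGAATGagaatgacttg

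Acta1 held an E-box of the form CAGCTG at 237 to 232 bases before the start, a CArG box at 94 to 85 and MCAT at 67 to 62. Tnnc2 held 3 E-boxes, while Myh3 and Myl11 held 1 each. Myh1 held no E-box in this window but a MEF2 box at 212 to 203 bases and MCAT, on the opposite strand, at 17 to 12 bases before the start. For 36 of the 44 listed genes the table had a promoter, 40 promoters in all, and Tnnc1 was not among them. An E-box was found in 30 of the 40, or 75.0%, against 65.5% of 33469 promoters in the table, and its form CAGCTG, which is counted among the E-boxes too, in 27.5% against 12.0%. MCAT was found in 20.0% against 12.1%, the CArG box in 10.0% against 1.5% and the MEF2 box in 17.5% against 2.96%. These shares describe the windows, and neither binding nor use of a motif was measured here.

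The other troponins lay within 2-fold. All 8 members of the family had a difference below 0 between L6-HGF and L6-WT in monolayers, against 49.4% of all genes. In sheets 7 of the 8 did, against 53.7%, the exception being the slow troponin T gene Tnnt1 (0.27). Tnnt3, the fast troponin T gene, had -0.04 in sheets and -0.09 in monolayers, within the SD of the bacterial controls (0.22 and 0.12). Troponin I, the inhibitory subunit, had -0.33 in sheets and -0.21 in monolayers for the slow gene Tnni1, -0.09 and -0.03 for the fast gene Tnni2, and -0.15 and -0.16 for the cardiac gene Tnni3. Cardiac troponin T, Tnnt2, binds tropomyosin and is also made in developing skeletal muscle. It was measured by 2 probe sets that disagreed. One of them had -0.17 in the L6-HGF sheet and 0.12 in the L6-WT sheet, and -0.12 in the L6-HGF monolayer and 1.30 in the L6-WT monolayer, so that it stood out on the same array as Myh3 and Myl11. The other had -0.17 and 0.28 in the L6-HGF and L6-WT sheets, and 0.01 and -0.01 in the L6-HGF and L6-WT monolayers. In monolayers their differences were -1.42 and 0.03, and the mean for the gene (-0.70) holds for neither of them.

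Tropomyosin, the coiled coil along the thin filament, comes from genes that are also spliced into non-muscle forms, and the probe sets of each gene spread widely. Tpm1 had 7 probe sets, whose differences between L6-HGF and L6-WT lay between -0.12 and 1.21 in sheets and between -0.35 and 0.51 in monolayers. As the mean of its probe sets it was 1.46-fold higher in the L6-HGF sheet. All 7 probe sets were lower in the sheet than in the monolayer of L6-WT, 2 of them by more than 2-fold. Tpm3 had 12 probe sets, and in L6-HGF all 12 were lower in the sheet than in the monolayer, 6 of them by more than 2-fold. Between sheet and monolayer of L6-WT, 9 of the 12 were lower and none passed 2-fold. As the mean, Tpm3 was 1.74-fold lower in the sheet of L6-HGF and 1.24-fold lower in that of L6-WT. A single Tpm3 probe set passed 2-fold in monolayers, with a higher value in L6-HGF (1.15, log2), while the lowest of the 12 was at -0.01. Tpm2 had 2 probe sets of opposite sign in both formats, with means of 0.08 in sheets and -0.22 in monolayers.

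**Figure D3:**
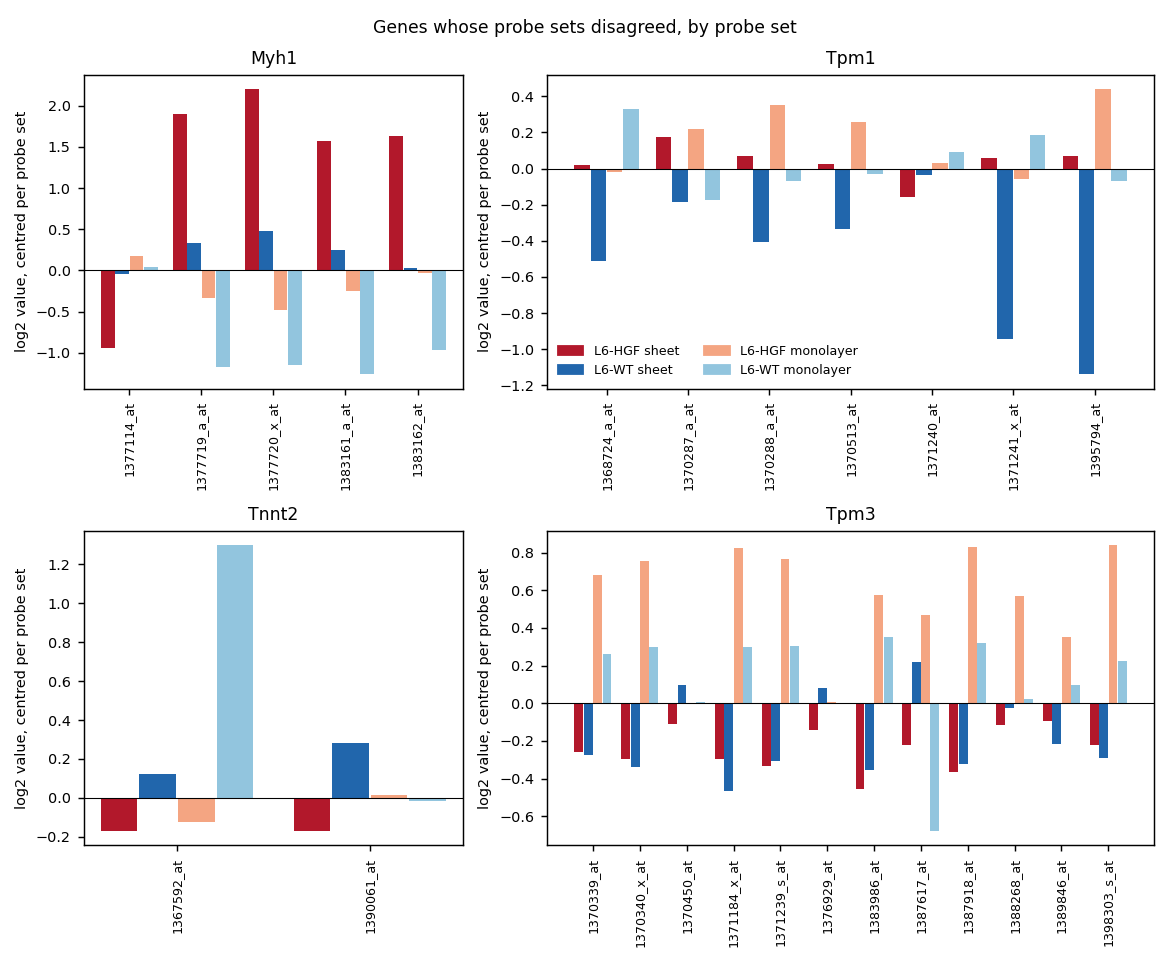
Centred log2 value (vertical axis) on the 4 arrays, 1 bar per array, for each probe set of Myh1, Tnnt2, Tpm1 and Tpm3, the 4 genes in which a probe set past 2-fold stood beside another near or beyond 0 in the same comparison. In Myh1, 4 probe sets are highest in the L6-HGF sheet and lowest in the L6-WT monolayer, and the leftmost one is lowest in the L6-HGF sheet. In Tpm3 most probe sets are highest in the L6-HGF monolayer.

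Adult fast myosin heavy chain Myh1 was the member with the largest positive difference in each of the 4 comparisons of arrays, and the gene with the widest disagreement between probe sets. As the mean of 5 probe sets it had 1.27 in the L6-HGF sheet and 0.21 in the L6-WT sheet, and -0.18 in the L6-HGF monolayer and -0.90 in the L6-WT monolayer (log2, centred). The sheets were above the monolayers, and L6-HGF was above L6-WT in each format. Myh1 was 2.09-fold higher in L6-HGF sheets and 1.64-fold higher in L6-HGF monolayers, and the sheet was above the monolayer by 2.74-fold in L6-HGF and by 2.15-fold in L6-WT. Of its probe sets, 4 gave differences between 1.33 and 1.73 in sheets and between 0.67 and 1.02 in monolayers. The fifth gave -0.90 in sheets and 0.12 in monolayers, and -1.11 and -0.09 between sheet and monolayer of L6-HGF and L6-WT. Without the probe sets whose suffix marks a possible match to several transcripts, 2 were left, 1 of those 4 and the fifth. Their mean lay within 2-fold in every comparison, at 0.35 between the sheets of L6-HGF and L6-WT and 0.53 between their monolayers. Between sheet and monolayer it was 0.27 in L6-HGF and 0.45 in L6-WT. The pair had opposite signs except between the monolayers, so the mean holds for neither probe set. Taken alone, the one from the 4 was higher past 2-fold in the L6-HGF sheet than in the L6-WT sheet and the L6-HGF monolayer. In the other comparisons it was higher within 2-fold. Myh1 lies in a cluster of skeletal myosin heavy chain genes on chromosome 10, in the order Myh3, Myh2, Myh1, Myh4, Myh8 and Myh13, and the annotation has the long non-coding RNA LOC102555216 overlapping it. These genes have similar sequences, and the array data do not show which transcript the probe sets of Myh1 measured.

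The other myosin heavy chains lay within 2-fold in every comparison. Between L6-HGF and L6-WT they ranged from -0.25 (Myh2) to 0.47 (the cardiac gene Myh6) in sheets and from -0.20 (Myh7) to 0.35 (Myh2) in monolayers. Perinatal Myh8 had -0.09 in sheets and 0.20 in monolayers, and adult fast Myh4 had 0.03 and -0.19. The light chains other than Myl11 ranged from -0.06 to 0.03 in sheets and from -0.38 (the fast gene Myl1) to 0.02 in monolayers. Embryonic light chain Myl4 had -0.23 in the L6-HGF sheet and -0.22 in the L6-WT sheet, and 0.22 in the L6-HGF monolayer and 0.56 in the L6-WT monolayer. It was therefore lower in both sheets than in both monolayers, by 1.37-fold in L6-HGF and 1.72-fold in L6-WT. Mybph, a myosin-binding protein of the thick filament, had -0.57 in the L6-HGF sheet and 0.24 in the L6-WT sheet, and -0.24 in the L6-HGF monolayer and 0.42 in the L6-WT monolayer. Like Acta1 it was low on both L6-HGF arrays, by 1.75-fold in sheets and 1.58-fold in monolayers. Its relatives Mybpc1 and Mybpc2 had 0.10 and 0.01 in sheets, and -0.10 and -0.29 in monolayers.

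Z-disc, M-band and filament scaffold genes all lay within 2-fold. Against 53.7% of all genes in sheets and 49.4% in monolayers, 2 and 5 of the 8 Z-disc genes were below 0. Actn2, the alpha-actinin that crosslinks thin filaments, had the largest difference of them in sheets, with 0.49 in the L6-HGF sheet against -0.12 in the L6-WT sheet, or 1.53-fold higher. In monolayers it had 0.07 in L6-HGF and -0.07 in L6-WT. Ldb3, which binds alpha-actinin, had 6 probe sets, all below 0 in monolayers (-0.86 to -0.17), while in sheets 3 were above 0 and 3 below. The giant proteins titin and nebulin, Ttn and Neb, had -0.03 and -0.03 in sheets, and -0.16 and -0.16 in monolayers. Myom2, a myomesin that crosslinks myosin at the M-band, had -0.26 in the L6-HGF sheet and 0.24 in the L6-WT sheet, and -0.24 in the L6-HGF monolayer and 0.25 in the L6-WT monolayer. It was thus low on both L6-HGF arrays, by 1.41-fold in each format. Muscle creatine kinase Ckm, part of which sits at the M-band, had -0.04 in sheets and -0.35 in monolayers. The leiomodin Lmod2, which acts at the pointed end of the thin filament, had 0.46 in sheets and -0.31 in monolayers, whereas the capping protein Tmod1 had -0.09 and -0.18.

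When members were grouped by isoform, each class had 1 or 2 members lower past 2-fold in monolayers, against 0.309% of all genes, and none in sheets, against 0.95%. Of 11 fast skeletal isoforms, 1 was higher in L6-HGF sheets (Myh1, whose probe sets disagreed), against 0.492% of all genes, and 2 were lower in L6-HGF monolayers (Tnnc2 and Myl11), with medians of -0.01 and -0.19. Of 11 slow and cardiac isoforms, none passed 2-fold in sheets and 1 was lower in monolayers (Tnnc1), with medians of -0.06 and -0.20. Among the developmental genes Myh3, Myh8 and Myl4, Myh3 passed 2-fold in monolayers and none did in sheets.

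Set over the 4 arrays, the members were most often highest in the L6-WT monolayer and most often lowest in the L6-HGF monolayer. The L6-WT monolayer array held the highest value for 18 of 43 members, or 41.9%, against 20.5% of all genes. The L6-HGF monolayer array held the lowest for 21, or 48.8%, against 28.5% of all genes. Over the 4 arrays 6 members spanned more than 1 (log2), or 14.0% against 6.07% of all genes, and 23 spanned less than 0.5, or 53.5% against 70.0%. Since dim probe sets cannot be told from bright ones here, a narrow span does not show that a gene was expressed and stable.

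Between sheet and monolayer, few members passed 2-fold. In L6-HGF, 1 member was higher in the sheet (Myh1, with the limit on its probe sets given above) and none was lower, against 1.17% of all genes higher and 2.57% lower. Here 15 of 43 members were below 0, against 45.9% of all genes, with a median difference of 0.17 (log2), while the median was 0.03 over all genes and 0.17 over the bacterial controls. In L6-WT, 1 member was higher in the sheet (Myh1) and 1 was lower (Myh3), against 0.717% of all genes higher and 0.492% lower. There 24 of 43 members were below 0, against 45.6% of all genes, with a median of -0.05, against 0.03 over all genes and 0.23 over the bacterial controls. Other members that were higher in the L6-HGF sheet than in the L6-HGF monolayer were Myl11 (0.54), the Z-disc gene Tcap (0.53) and Ckm (0.52), all within 2-fold. Past 1.5-fold, 1 member was higher and 1 lower in the L6-HGF sheet, against 4.02% and 7.28% of all genes, and 1 was higher and 4 lower in the L6-WT sheet, against 3.37% and 3.76%. The tropomyosin genes were lower in the sheet in both lines, with means of -0.80 to -0.14 in L6-HGF and -0.66 to -0.31 in L6-WT. The 12 non-muscle counterparts of the contractile genes had medians of -0.50 in L6-HGF and -0.46 in L6-WT in the same comparisons, with 10 and 8 of them below 0, and the part of non-muscle transcripts in the tropomyosin values was not tested. The part of the control shift in these small differences was not tested.

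**Figure D4:**
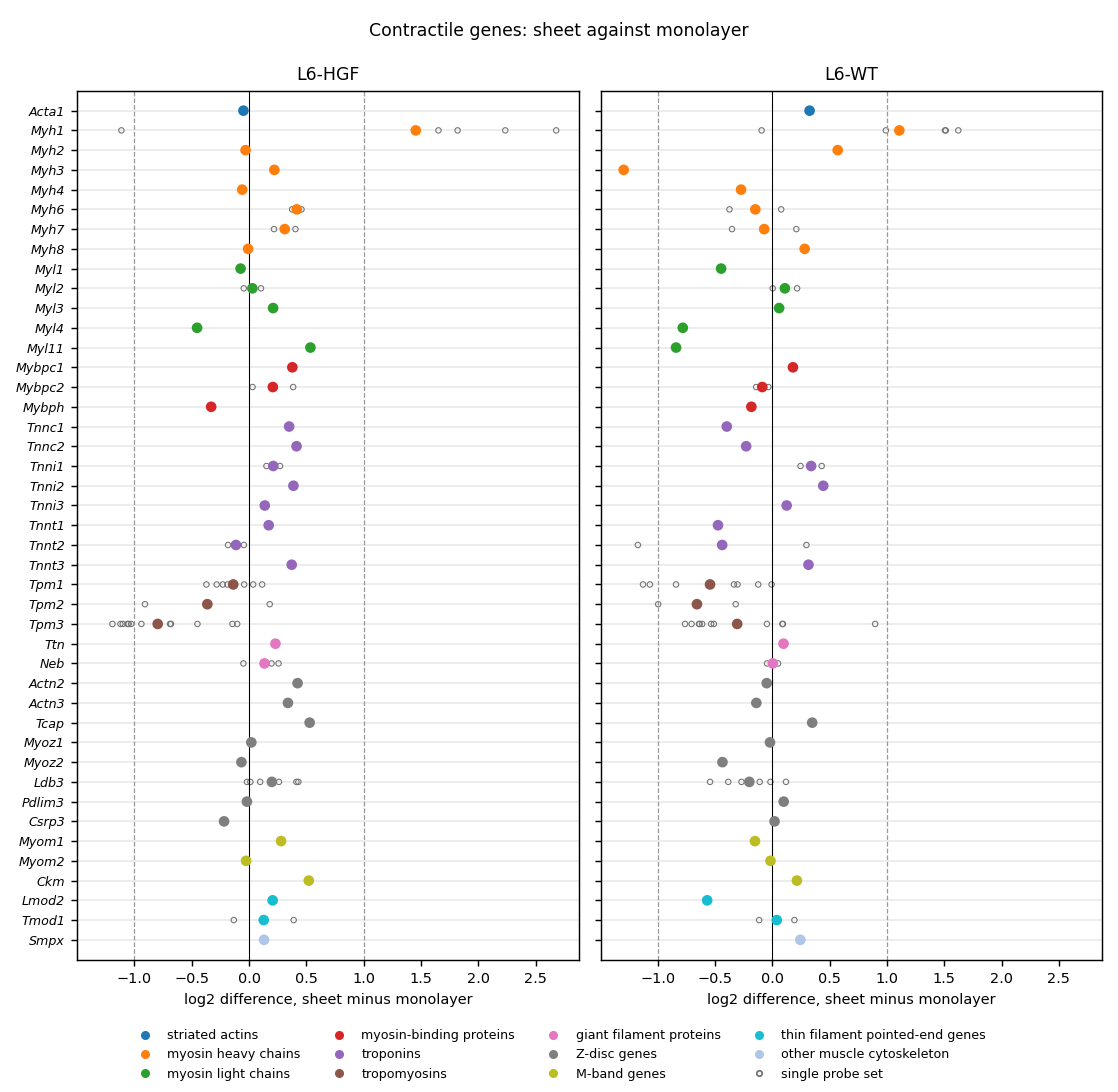
Log2 difference between sheet and monolayer (horizontal axis) for each of 43 contractile genes, in L6-HGF (left) and L6-WT (right), with dashed lines at 2-fold, filled points for genes coloured by role and open circles for single probe sets. Myh1 lies past the upper line in both lines and Myh3 past the lower line in L6-WT. The filled points of the tropomyosins lie below 0 in both, while some of their single probe sets lie above 0.

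L6-HGF minus L6-WT was more negative in monolayers than in sheets for 31 of 43 members and the reverse for 12, against 52.4% of all genes for the reverse, with a median difference of the effect, sheets minus monolayers, of 0.21 (log2) over the members and -0.01 over all genes. By more than 2-fold this held for 2 members, Myh3 (1.52) and Myl11 (1.38), against 0.471% of all genes, and none passed 2-fold in the opposite direction, against 1.43%. These were the 13th and 22nd highest of 14217 genes. Lmod2 had 0.78, Tnnc1 0.75, Tnnt1 0.65 and Tnnc2 0.64, so that past 1.5-fold there were 6 such members and 1 of the opposite direction (Myh2, -0.60), against 2.57% and 4.68% of all genes. Of other members low in L6-HGF in both formats, Mybph (-0.15) and Myom2 (-0.01) lay within the SD of the bacterial controls (0.19). Acta1 (-0.37) lay beyond it but within 1.5-fold. Tnnc1 and Tnnc2 were low in L6-HGF in both formats too. With 4 arrays the difference between formats leaves no residual and was not tested.

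The hHGF effect common to both formats was tested with limma over all 4 arrays and 31042 probe sets, with terms for cells and format and 1 residual degree of freedom. Acta1 had a mean log2 difference of -1.82 ± 0.14 (SE), Tnnc2 -1.29 ± 0.19, Tnnc1 -1.20 ± 0.22, Mybph -0.74 ± 0.11 and Myom2 -0.50 ± 0.10, each with an adjusted p of 0.505 from limma. Myh3 had -1.12 ± 0.40 and Myl11 -0.73 ± 0.37, with larger errors since the formats differed. The 4 concordant probe sets of Myh1 had 1.17 to 1.27, with SEs of 0.13 to 0.29. None of the 80 member probe sets, and 0% of all probe sets, had an adjusted p under 0.05. At an unadjusted p under 0.05, 8 member probe sets were higher, 4 of Myh1 and 4 of Tpm1, and 7 were lower, against 4.75% and 4.84% of all probe sets. For the sheet effect common to both lines, none of the 80 passed an adjusted p under 0.05 in limma either, with a smallest value of 0.158, and the unadjusted p was under 0.05 for 9 higher and 12 lower ones, against 8.87% and 11.5% of all probe sets. Of these 12, 8 were probe sets of Tpm3.

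Further myofibril genes, outside the 44, showed no member lower by 2-fold in L6-HGF. Of 27 such genes on the array, none passed 2-fold in L6-HGF sheets, against 0.492% of all genes higher and 0.95% lower. Their medians were 0.01 in sheets and 0.07 in monolayers (log2). In L6-HGF monolayers 1 was higher and none was lower, against 0.225% and 0.309% of all genes. With so few genes past 2-fold anywhere, a count of none does not set so short a list apart. The higher one was the myosin chaperone Unc45b, with 0.39 in the L6-HGF monolayer and -0.77 in the L6-WT monolayer, or 2.23-fold higher. The non-muscle counterparts, among them Actg1, Myh9 and Actn1, had medians of 0.03 and 0.08 over 12 genes. None of them passed 2-fold in either format, against the same shares of all genes. Of 9 myogenic regulators, 5 were below 0 in sheets and 7 in monolayers, against 53.7% and 49.4% of all genes. The regulators had medians of -0.05 and -0.17. The lowest was the fusion gene Mymk, which had -0.74 in the L6-HGF sheet and 0.26 in the L6-WT sheet, just past 2-fold, and -0.26 in the L6-HGF monolayer and 1.02 in the L6-WT monolayer, or 2.43-fold lower. None of the other 8 passed 2-fold as lower, against 0.95% of all genes in sheets and 0.309% in monolayers. Myogenin, Myog, had -0.78 and -0.60, whereas Myod1 had 0.05 and -0.12.

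Markers of fibroblasts were lower in the same contrast. Of 12 such genes, 3 (Postn, Dpt and Mfap5) passed 2-fold as lower in L6-HGF in each format, against 0.95% of all genes in sheets and 0.309% in monolayers. Below 0 lay 12 in sheets and 10 in monolayers, against 53.7% and 49.4% of all genes. The median centred value over the list was -0.37 in the L6-HGF sheet and 0.18 in the L6-WT sheet, and -0.17 in the L6-HGF monolayer and 0.14 in the L6-WT monolayer. Between sheet and monolayer the list was divided. In both lines 4 of the 12 (Dcn, Lum, Postn and Dpt) were higher in the sheet past 2-fold. The shares of all genes were 1.17% in L6-HGF and 0.717% in L6-WT. Below 0 lay 7 in L6-HGF and 6 in L6-WT, among them the collagen Col1a1 (-0.86 and -0.43), against 45.9% and 45.6% of all genes. The medians over the list were -0.31 and -0.01. Signal levels being lost, neither a summed level nor an absent marker could be given, and the part of these genes in the contractile differences was not tested. Of 10 smooth muscle genes, none passed 2-fold between L6-HGF and L6-WT. In sheets 8 were above 0 and 2 below, Smtn (-0.36) and Mylk (-0.15), against 53.7% of all genes below 0. The median was 0.29, and the highest values were those of Acta2 (0.96) and Tagln (0.85). In monolayers 4 were above 0 and 6 below, against 49.4% of all genes below 0, with a median of -0.02. Of 5 endothelial and 6 adipocyte markers, none passed 2-fold in either format. Over all genes, 0.492% were higher and 0.95% lower past 2-fold in sheets, and 0.225% and 0.309% in monolayers.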

How the data were processed

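Total RNA of 4 cultures was hybridised to Affymetrix whole-genome rat arrays, 1 per culture. Per the submitters' processing notes, the authors normalized the arrays with RMA (version not given in the sources used here) and to median, and the deposited values are log2 values centred on each probe set's median. Their number limits the precision, and nothing in the labels describes replicate cultures. Of 31099 probe sets, 57 controls were set aside. Among the remaining 31042, 20826 had 1 gene symbol, 436 had several and 9780 had no entry. An Entrez identifier matched the current rat gene table for 20758, which changed 0 symbols. A gene is the mean of its probe sets, called past 2-fold as in the study. The members, lists and rules were chosen with earlier results of these data known. Members past 2-fold in any comparison, or with disagreeing probe sets (1 past 2-fold and another beyond 0 or within 1.2-fold), are given on all 4 arrays, and other members were named after their values were seen. limma 3.58.1 in R 4.3.3 was fitted over all probe sets with Benjamini-Hochberg adjustment. The limma fit was tried on simulated data and the motif search on sequences with planted motifs. Alternatives were the median over probe sets, probe sets ending in _a_at, _s_at or _x_at left out, arrays shifted to median 0, quantile normalization, 1.5-fold, and models without 1 term. Python 3.11.15 with pandas 2.3.3, numpy 2.4.6 and matplotlib 3.10.9 served for all other steps.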

Additional observations from a re-analysis of the deposited data

Results flagged for a closer look

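Probe sets annotated to several genes were left out of every comparison, and 3 of the 8 that include a contractile gene passed 2-fold, so they are given here as values of data outside the main measurement. The probe set shared by Myh2, Myh1 and Myh8 was lower in the L6-HGF sheet than in the L6-WT sheet by -1.31 (log2), and lower in the sheet than in the monolayer by -3.11 in L6-HGF and -2.26 in L6-WT. It had -2.21 in the L6-HGF sheet and -0.90 in the L6-WT sheet, and 0.90 in the L6-HGF monolayer and 1.36 in the L6-WT monolayer. It therefore ran against 4 of the 5 probe sets annotated to Myh1 alone. The fifth had the same sign in the comparisons above, though only -0.09 between sheet and monolayer of L6-WT. Between the monolayers of L6-HGF and L6-WT the signs differed, with -0.45 for the shared probe set and 0.12 for the fifth. Of the 5 probe sets shared by Acta2 and Actc1, 1 was lower in the sheet than in the monolayer of L6-HGF by -1.83 and another by -1.03. In L6-WT the same differences were -0.43 and -0.59. None of these values could be assigned to a single gene.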

How the results depend on the processing

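Each comparison rests on 1 array per culture. No paired analysis was possible by replicate number, because every group holds 1 sample, and for the same reason no array could be left out. The limma model compared L6-HGF with L6-WT within format, and without the format term it gave no adjusted p under 0.05 either, nor did the sheet effect without the cells term. Of the 5 counts of members past 2-fold, that for L6-HGF against L6-WT in monolayers (5 members) moved with a 1.5-fold threshold, to 8. These 5 members have 1 probe set each, of plain suffix, so the alternatives on probe sets could not change their calls. At 1.5-fold the counts were 6 for L6-HGF against L6-WT in sheets, 2 for sheet against monolayer in L6-HGF, 5 in L6-WT and 7 for the difference between formats, against 2, 1, 2 and 2 at 2-fold. Without probe sets ending in _a_at, _s_at or _x_at, Myh1 lay within 2-fold, which left 1 member past 2-fold between L6-HGF and L6-WT in sheets, 0 between sheet and monolayer in L6-HGF and 1 in L6-WT. Quantile normalization, which acts on centred values and is no normalization of signal, left 1 between the sheets, where Myh1 had 0.74, and gave 3 rather than 2 for the difference between formats, adding Tnnc1. With it, limma gave 3 member probe sets an adjusted p under 0.05 for the sheet effect common to both lines, all of Myh1 (adjusted p 0.0434 to 0.0457), and 0 without it. The cause was not tested. The medians over the members moved by less than the SD of the bacterial controls under each alternative run. That criterion is loose where the SD is larger than the median itself. This was so between the sheets (SD 0.22, median -0.03) and between sheet and monolayer of L6-WT (SD 0.18, median -0.05). Among the 6 members past 2-fold in any comparison, the 1 change of sign was that of Acta1 between sheet and monolayer of L6-HGF. It lay within 2-fold there (-0.05, and 0.31 with quantile normalization). Of the 56 values that an alternative could move, 37 moved by less than that SD. These include all values from arrays shifted to median 0, which could not pass it, since the largest such shift was -0.02 (log2). Myh1 moved by more than the SD in every comparison under both alternatives on probe sets. With quantile normalization the 5 members lower in L6-HGF monolayers moved past it in that comparison, each further from 0. The other 40 were fixed, since those members have 1 probe set.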

Other observations

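Muscle genes outside the contractile list also differed between sheet and monolayer. The calcium-handling genes Casq2, which stores calcium in the sarcoplasmic reticulum, and Pln, which restrains its calcium pump, were lower in the sheet by -1.61 and -1.84 (log2) in L6-HGF and by -1.68 and -1.53 in L6-WT. Klhl41, a kelch protein of the sarcomere, was lower by -1.54 in L6-HGF and -1.91 in L6-WT, and integrin Itga7, the laminin receptor of muscle, by -1.13 and -1.14. In contrast, Cox8b, a muscle subunit of cytochrome c oxidase, was higher by 2.05 and 1.41. Cox6a2, a subunit of the same complex, had 0.99 in the L6-HGF sheet and -0.82 in the L6-HGF monolayer, a difference of 1.80, and 0.15 in the L6-WT sheet and -0.15 in the L6-WT monolayer, a difference of 0.29. These genes were picked for their size of difference after their values were seen and have no replicate check.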
